A study of Triticum aestivum with 8 samples.

Results

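The genes described are 9 wheat storage protein genes whose identifiers lie at one end of chromosome 1A, out of 179 genes with a TraesCS identifier in the rows used. They were taken from the gliadin and low molecular weight (LMW) glutenin lists in the supplement of the study. The choice used no expression value, but it was made with earlier results of these data known. The 9 genes comprise 4 gamma-gliadin genes (TraesCS1A02G007300, TraesCS1A02G007400, TraesCS1A02G007405 and TraesCS1A02G007700), 1 omega-gliadin gene (TraesCS1A02G005387) and 4 LMW-glutenin genes (TraesCS1A02G007934, TraesCS1A02G008000, TraesCS1A02G010900 and TraesCS1A02G010905). Grain of the bread wheat cultivar AiKang58 (AK58) was taken for RNA-seq at 4 stages, each with 2 replicates. They are called DAP5, DAP9, DAP15 and DAP20 after the number of days since pollination. The plants were vernalized and then grown in a greenhouse, and all stages come from the same untreated cultivar. The DAP5 and DAP9 libraries are from endosperm without the embryo, and the DAP15 and DAP20 libraries are from whole seed. Between the early and the late pair of stages, tissue and age therefore cannot be told apart.

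Gliadins and glutenins are the prolamin storage proteins that make up wheat gluten, and their genes are transcribed in the starchy endosperm during grain filling. Gliadins stay monomeric and give dough its viscosity and extensibility, whereas LMW-glutenin subunits are linked by disulfide bonds into large polymers that give dough its strength. Gamma-gliadins hold cysteines that form bonds within the protein, while omega-gliadins are rich in glutamine and proline and mostly lack cysteine. On the group of chromosomes to which 1A belongs, gamma-gliadin, omega-gliadin and LMW-glutenin genes form tightly linked clusters of similar copies near the end of the short arm.

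The deposited values are TPM, in which reads are divided by gene length and the transcripts of each library are scaled to a sum of 1000000, so levels of different genes can be compared within a library. TPM keeps no read counts, and the depth is therefore unknown. Only the first rows of each table were used, between 179 and 194 per library, and how far they reached differed between libraries. A gene whose row was not reached was treated as not measured, never as 0. All 9 genes were measured at DAP15, TraesCS1A02G007405 in 7 of the 8 libraries, TraesCS1A02G007700 in 3, and the LMW-glutenin genes in the 2 DAP15 libraries. The DAP15 tables held 0 rows with ENSRNA identifiers, against 110 in each other table, so a difference in how the tables were made cannot be told apart from this stage. Of the remaining storage protein lists, 0 of 4 high molecular weight glutenin genes and 0 of 35 alpha-gliadin genes were in the rows used. The labels do not say whether the replicates came from separate plants, so all errors below describe the spread between these libraries, which may be technical.

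At DAP15 the 9 genes together held 35142 and 35075 TPM in replicates 1 and 2 of whole seed. This is 3.51% ± 0.00477 (SD, n = 2) of the 1000000 TPM to which a library is scaled. The full sum was not checked, since only the first rows were used. The genes were 9 of the 179 rows used at that stage but held 91.3% and 91.5% of the TPM in those rows. The LMW-glutenin genes summed to 19589 ± 100 TPM (SD, n = 2), the gamma-gliadin genes to 15111 ± 140 TPM (SD, n = 2) and the omega-gliadin gene to 409 ± 7.68 TPM (SD, n = 2). As shares of the 9 genes, these are 55.8% ± 0.362, 43.0% ± 0.342 and 1.16% ± 0.0203 (SD, n = 2). By comparison, the 170 other genes measured at DAP15 had a median of 0.00935 TPM, 75 of them were listed at 0 in both libraries, and 5 were over 100 TPM in both.

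The copies differed from each other far more than the replicates did, over a 3989-fold range of mean TPM at DAP15. The LMW-glutenin gene TraesCS1A02G008000 was the most abundant, with 14849 and 15056 TPM in replicates 1 and 2, and was the highest row of both tables. The gamma-gliadin gene TraesCS1A02G007700 followed with 6819 and 6908 TPM. The gamma-gliadin gene TraesCS1A02G007400 stood directly under it with 6579.6 and 6412 TPM. These gamma-gliadin copies were the closest neighbours in the order, with a ratio of TraesCS1A02G007700 to TraesCS1A02G007400 of 1.06 ± 0.0291 (SD, n = 2). TraesCS1A02G007700 was higher in both libraries, but with 2 libraries a gap of this size is not settled against the spread. The LMW-glutenin gene TraesCS1A02G010900 had 3881 and 3865 TPM. It stood 1.68-fold ± 0.0257 (SD, n = 2) under TraesCS1A02G007400, and its replicates differed least of the 9 genes, by a coefficient of variation of 0.290%.

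The lower part of the order held 1 copy of the gamma-gliadin class above an LMW-glutenin and the omega-gliadin gene. TraesCS1A02G007405 (gamma-gliadin) had 1678 and 1562 TPM in replicates 1 and 2 of DAP15. TraesCS1A02G007934 (LMW-glutenin) had 784 and 736 TPM, and TraesCS1A02G005387 (omega-gliadin) had 414 and 403 TPM. Each of these genes was separated from the next by 1.86-fold or more in mean ratio, and no replicate overlapped. TraesCS1A02G007300, the weakest of the gamma-gliadin copies, had 134 and 129 TPM. TraesCS1A02G010905, the LMW-glutenin gene at the bottom of the order, had 3.93 and 3.56 TPM. The step between these last genes was the widest of the order, at 35.2-fold ± 1.62 (SD, n = 2). TraesCS1A02G010905 has the identifier next to TraesCS1A02G010900. The order of all 9 genes was the same in replicate 1 and in replicate 2.

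**Figure D1:**
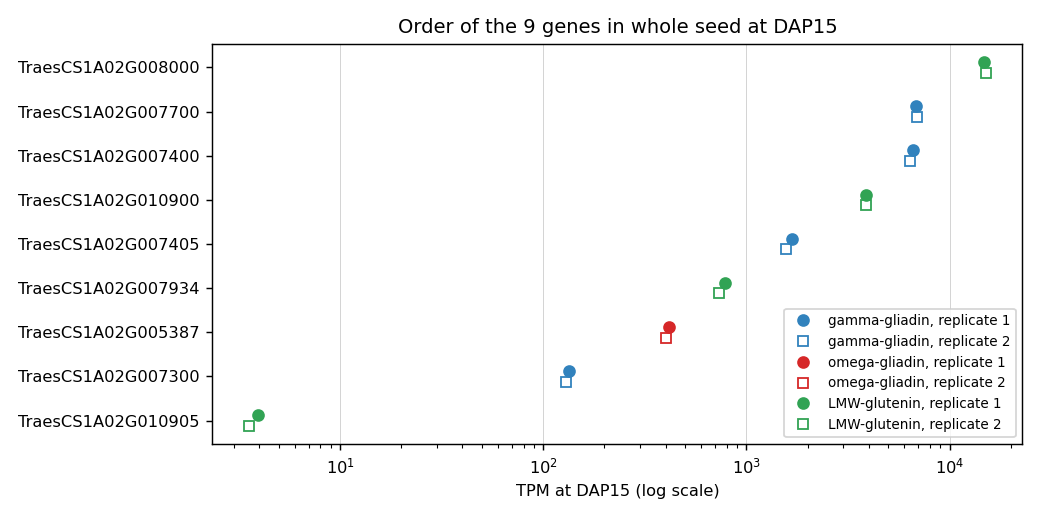
TPM of the 9 genes in whole seed at DAP15 on a log scale, with filled circles for replicate 1, open squares for replicate 2 and colours for the gene class. The means run from 14952 TPM for TraesCS1A02G008000 to 3.75 TPM for TraesCS1A02G010905, and only TraesCS1A02G007700 and TraesCS1A02G007400 lie close together.

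Within the LMW-glutenin class, which was measured at DAP15 only, 1 copy stood far above the others. TraesCS1A02G008000 alone held 42.6% ± 0.474 (SD, n = 2) of the TPM of the 9 genes. TraesCS1A02G010900 reached 25.9% ± 0.328 (SD, n = 2) of the level of TraesCS1A02G008000 in the same library, and TraesCS1A02G007934 reached 5.08% ± 0.279 (SD, n = 2). TraesCS1A02G010905 reached 0.0251% ± 0.00198 (SD, n = 2). In the gamma-gliadin class, by contrast, TraesCS1A02G007700 and TraesCS1A02G007400 held similar shares of the 9 genes, at 19.5% ± 0.208 and 18.5% ± 0.312 (SD, n = 2). The copies of each family resemble each other in sequence, and how reads shared between copies were assigned is not given in the sources used here, so the split between copies of 1 family is uncertain.

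Across the stages, the gamma-gliadin gene TraesCS1A02G007400 was the most abundant measured member at DAP5, DAP9 and DAP20. Its TPM in replicates 1 and 2 was 1369 and 90.0 in DAP5 endosperm, 15570 and 18385 in DAP9 endosperm, and 3630.1 and 7455 in DAP20 whole seed, beside the DAP15 values given above. Both DAP9 libraries stood above all other libraries, and the DAP20 replicates lay on either side of the DAP15 values. For TraesCS1A02G007405 the TPM was 367 and 23.3 in DAP5 endosperm, 4472 and 5544 in DAP9 endosperm, and 1923 in the single DAP20 library that reached it. It too was highest at DAP9. TraesCS1A02G007700 had 14093 TPM in replicate 1 of DAP9, which is about the level of TraesCS1A02G007400 in that library and above both of its own DAP15 values.

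The other gamma-gliadin gene did not have its maximum at DAP9 alone. The TPM of TraesCS1A02G007300 was 38.1 and 5.41 in DAP5 endosperm, 112 and 140.4 in DAP9 endosperm, 134 and 129 in DAP15 whole seed, and 67.4 and 93.8 in DAP20 whole seed. The DAP9 and DAP15 values of this gene overlapped, and both DAP20 values were below them. The TPM of the omega-gliadin gene TraesCS1A02G005387 was 52.1 and 5.07 in DAP5 endosperm, 225 and 267 in DAP9 endosperm, 414 and 403 in DAP15 whole seed, and 145 and 279 in DAP20 whole seed. Both DAP15 libraries stood above all others for this gene. These are levels in bulk tissue, in which fewer cells of a type and less RNA per cell cannot be told apart.

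**Figure D2:**
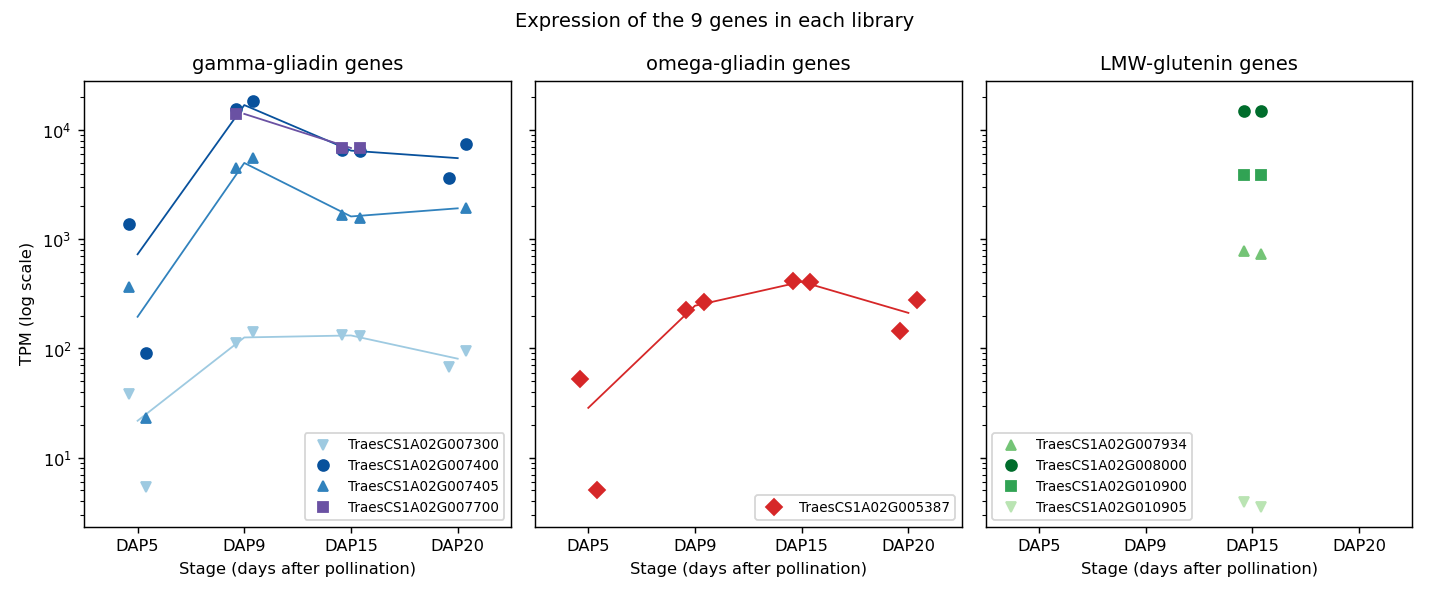
TPM of the 9 genes on a log scale by stage, with 1 point per library (replicate 1 to the left, replicate 2 to the right) and lines through the stage means, in a panel for each class. The gamma-gliadin genes TraesCS1A02G007400 and TraesCS1A02G007405 are highest at DAP9 and the omega-gliadin gene is highest at DAP15, and the LMW-glutenin genes have points at DAP15 only.

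The replicates of DAP5 differed severalfold in every gliadin gene measured there. Replicate 1 was above replicate 2 by 15.2-fold for TraesCS1A02G007400, 15.7-fold for TraesCS1A02G007405, 10.3-fold for TraesCS1A02G005387 and 7.05-fold for TraesCS1A02G007300. In the same pair of libraries, 13 tested genes that stand among the ENSRNA rows were all higher in replicate 1 (median ratio of TPM + 1 of 3.35), while the other 21 tested genes outside the lists had a median ratio of 0.978. These 21 include TraesCS1A02G005315, TraesCS1A02G005368, TraesCS1A02G007200 and TraesCS1A02G007344, which were 8.85-fold to 17.6-fold higher in TPM in replicate 1. At DAP20 replicate 2 was above replicate 1, by 2.05-fold for TraesCS1A02G007400, 1.93-fold for TraesCS1A02G005387 and 1.39-fold for TraesCS1A02G007300. The 13 genes among the ENSRNA rows were again higher in the same library as the gliadin genes, by a median of 2.73-fold, against 0.977-fold for the other 21. The part of these library differences in the gliadin values was not tested. At DAP15 the largest ratio between replicates was 1.10-fold, for TraesCS1A02G010905, and at DAP9 it was 1.25-fold, for TraesCS1A02G007300.

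Ratios between genes of the same library do not depend on how the libraries are scaled to each other, and they varied less for some gliadin genes than for others. TraesCS1A02G007405 stood at 26.3% ± 0.649 of TraesCS1A02G007400 in DAP5 endosperm, 29.4% ± 1.01 in DAP9 endosperm and 24.9% ± 0.815 in DAP15 whole seed (SD, n = 2 each), and at 25.8% in the single DAP20 library. Over all 7 libraries this ratio stayed between 24.4% and 30.2%, a 1.24-fold range, although the level of TraesCS1A02G007405 itself differed 15.7-fold between the DAP5 replicates alone. Within that range both DAP9 libraries were above all others. TraesCS1A02G007700 was at 90.5% of TraesCS1A02G007400 in the DAP9 library, below both DAP15 libraries, where it was at 106% ± 2.91 (SD, n = 2).

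The proportion of the omega-gliadin gene to TraesCS1A02G007400 varied more, over a 4.35-fold range. The ratio of TraesCS1A02G005387 to TraesCS1A02G007400 was 4.72% ± 1.29 in DAP5 endosperm, 1.45% ± 0.00489 in DAP9 endosperm, 6.29% ± 0.00343 in DAP15 seed and 3.86% ± 0.167 in DAP20 seed (SD, n = 2 each). On the log2 scale it was -3.99 and -3.99 in the DAP15 libraries, against -6.11 and -6.10 in the DAP9 libraries. Between DAP9, DAP15 and DAP20 the replicates of this ratio did not overlap. For TraesCS1A02G007300 the ratio to TraesCS1A02G007400 was 4.39% ± 2.28 in DAP5 endosperm, 0.741% ± 0.0316 in DAP9 endosperm, 2.03% ± 0.0102 in DAP15 seed and 1.56% ± 0.423 in DAP20 seed (SD, n = 2 each). Both of these ratios were lowest at DAP9 in both libraries. TraesCS1A02G007300 was at 32.2% ± 0.144 of the omega-gliadin gene at DAP15, against 51.1% ± 2.00 at DAP9 (SD, n = 2 each). The ratios are given as a description, and no test was run on them.

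**Figure D3:**
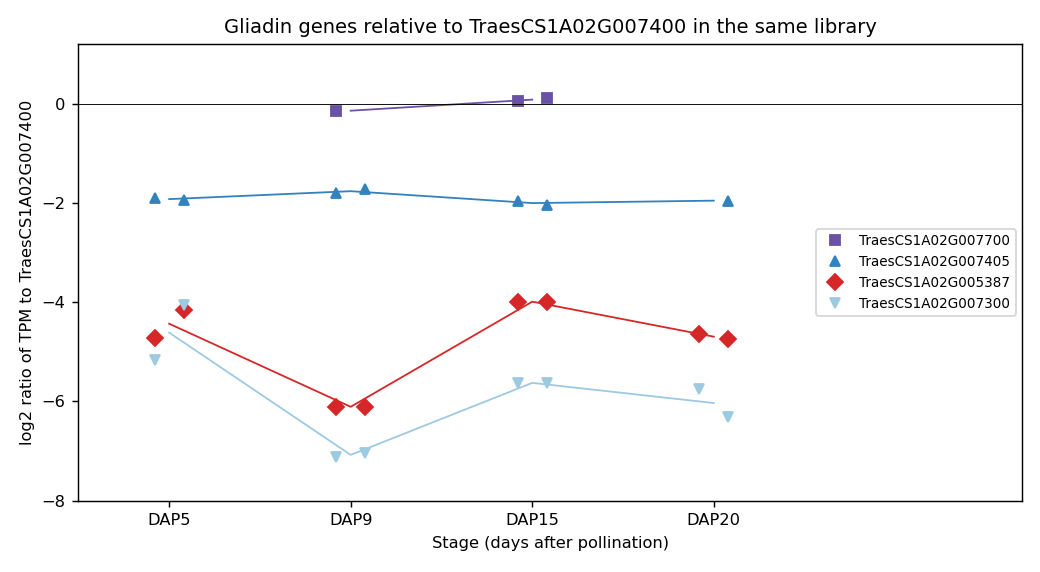
Log2 ratio of the TPM of 4 gliadin genes to that of TraesCS1A02G007400 in the same library, by stage, with 1 point per library (replicate 1 to the left) and lines through the stage means. TraesCS1A02G007405 lies between -2.04 and -1.73 in its 7 libraries, whereas TraesCS1A02G005387 and TraesCS1A02G007300 are lowest at DAP9, at a mean of -6.11 and -7.08.

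Differences between stages were fitted with limma to the log2(TPM + 1) of the 37 genes that were measured in all 8 libraries and reached a TPM of 1 in at least 2 of them. Of the 9 genes, 3 were among these 37, namely TraesCS1A02G007300, TraesCS1A02G007400 and TraesCS1A02G005387. Genes with a Benjamini-Hochberg adjusted p under 0.01 and a log2 fold change beyond 1 in either direction were called, which are the thresholds in the methods of the study. TraesCS1A02G007405 was fitted in a second model over 38 genes, in which its missing DAP20 library was left out.

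All 3 genes were higher in both libraries of DAP9, DAP15 and DAP20 than in both libraries of DAP5. Replicates were separated in this direction for 18.9% of the 37 tested genes at DAP9, 21.6% at DAP15 and 27% at DAP20, and in the other direction for 54.1%, 62.2% and 45.9%. The median log2 fold change of the 3 genes against DAP5 was 3.78 at DAP9, 4.20 at DAP15 and 3.49 at DAP20, and that of all tested genes was -0.75, -1.02 and -0.94. The limma threshold was met by 0 of the 3 genes in each of these comparisons, which share the DAP5 libraries. Over all tested genes, 5.41%, 8.11% and 5.41% were called higher at DAP9, DAP15 and DAP20, and 27%, 35.1% and 37.8% were called lower. At an unadjusted p under 0.05, limma had 3 of the 3 genes at DAP9, 3 at DAP15 and 2 at DAP20, against 16.2%, 16.2% and 18.9% of all tested genes with higher values at this threshold. With replicate 1 of DAP5 left out, all 3 genes were called at each of the later stages, and with replicate 2 left out 3, 2 and 0 were called at DAP9, DAP15 and DAP20. Of the 37 tested genes, 7, 7 and 8 were called higher and 10, 14 and 15 lower without replicate 1, and 6, 5 and 3 higher and 9, 15 and 14 lower without replicate 2. In these fits the lone DAP5 library is assumed to vary like the other stages.

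The largest fitted change against DAP5 was that of TraesCS1A02G007405 at DAP9, at 5.72 on the log2 scale (standard error 1.46, adjusted p = 0.0297 from limma). TraesCS1A02G007400 had a similar value at DAP9, of 5.58 (standard error 1.59, adjusted p = 0.0288 from limma). At DAP15 the omega-gliadin gene TraesCS1A02G005387 came closest to the threshold, at 4.51 on the log2 scale against DAP5 (standard error 1.03, adjusted p = 0.0136 from limma). It was called with a pseudocount of 5 (adjusted p = 0.00899 from limma) and with a filter at a TPM of 5 (adjusted p = 0.00877 from limma). Its adjusted p from limma ran from 4.00e-09 to 0.162 over all alternatives. The lowest came with libraries rescaled by the median of gene ratios, where the standard error was 0.729. In that fit the p-value rests on a spread that limma draws from the tested genes together. TraesCS1A02G007300 had the smallest changes, of 3.07 at DAP15 (standard error 0.84, limma adjusted p = 0.0256) and 2.35 at DAP20 (standard error 0.84, adjusted p = 0.0570 from limma). At DAP20 TraesCS1A02G007400 had a fitted change against DAP5 of 3.88 (standard error 1.59, adjusted p = 0.0859 from limma), while the omega-gliadin gene had 3.49 (standard error 1.03, adjusted p = 0.0329 from limma). The change of TraesCS1A02G007405 at DAP20 rests on 1 DAP20 library and was 4.35 (standard error 1.79, adjusted p = 0.103 from limma). Without replicate 1 of DAP5, the change of TraesCS1A02G007405 was 7.68, 6.06 and 6.31 at DAP9, DAP15 and DAP20. Without replicate 2 it was 3.76, 2.14 and 2.39. These fits hold 1 DAP5 library, so the wide spread between the DAP5 replicates is not part of their error.

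The DAP15 values of the gliadin genes lay on different sides of their DAP9 values, and no member was called in the fit of the 4 stages. In DAP15 whole seed against DAP9 endosperm, TraesCS1A02G007400 and TraesCS1A02G007405 had lower values in both libraries, with log2 fold changes of -1.38 (standard error 1.59, limma adjusted p = 0.650) and -1.62 (standard error 1.46, adjusted p = 0.599 from limma). For the omega-gliadin gene both libraries were higher, with 0.73 (standard error 1.03, adjusted p = 0.693 from limma), and TraesCS1A02G007300 overlapped, with 0.069 (standard error 0.84, adjusted p = 0.976 from limma). Of the 37 tested genes, replicates were separated upward for 35.1% and downward for 56.8%, so the separation of 1 of the 3 genes each way is near the background. None of these 3 genes was called, against 0% of tested genes called higher and 2.7% called lower, and 0 had an unadjusted p under 0.05 in limma, against 2.7% of tested genes with higher and 24.3% with lower values. The error of this fit includes the DAP5 spread. In a fit of DAP9 and DAP15 alone, TraesCS1A02G007400 and TraesCS1A02G007405 were called lower at DAP15 (adjusted p = 1.17e-14 and 1.48e-12 from limma), and over the other alternatives the adjusted p of both ran up to 1. That fit called 2 of the 37 tested genes higher and 2 lower. With 2 libraries per stage, its small p-values rest on a spread that limma draws from the tested genes together. The larger fit of DAP9, DAP15 and DAP20 without DAP5 called 0 of the 3 genes, and 0 higher and 1 lower of the 37. TraesCS1A02G007405 was not called either when DAP5 was left out of its own model (adjusted p = 0.0137 from limma). Its change stayed at -1.62 with either DAP5 replicate left out. Those fits hold 1 DAP5 library, so only the change is given for them and not whether it was called.

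Between DAP20 and the stages before it, 0 of the 3 genes were called or had an unadjusted p under 0.05 in limma. Over all tested genes, 10.8% had higher and 32.4% lower values at that threshold against DAP9, and 5.41% each way against DAP15. In DAP20 whole seed against DAP9 endosperm, TraesCS1A02G007400 had a log2 value of -1.70 (standard error 1.59, adjusted p = 0.529 from limma), TraesCS1A02G007300 one of -0.65 (standard error 0.84, limma adjusted p = 0.693) and TraesCS1A02G005387 one of -0.29 (standard error 1.03, adjusted p = 0.943 from limma). The first 2 of these genes were lower in both DAP20 libraries, as were 43.2% of the tested genes. In that comparison 5.41% of the tested genes were called lower and 0% higher. Against DAP15, which is the same tissue, TraesCS1A02G007300 and TraesCS1A02G005387 were lower in both DAP20 libraries, as were 37.8% of the tested genes, and 0% of the tested genes were called in either direction. Their log2 fold changes were -0.72 (standard error 0.84, limma adjusted p = 0.717) and -1.02 (standard error 1.03, adjusted p = 0.667 from limma). TraesCS1A02G007400 had -0.32 (standard error 1.59, adjusted p = 0.898 from limma), and TraesCS1A02G007405 had 0.25 with 1 DAP20 library (standard error 1.79, adjusted p = 0.935 from limma).

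**Figure D4:**
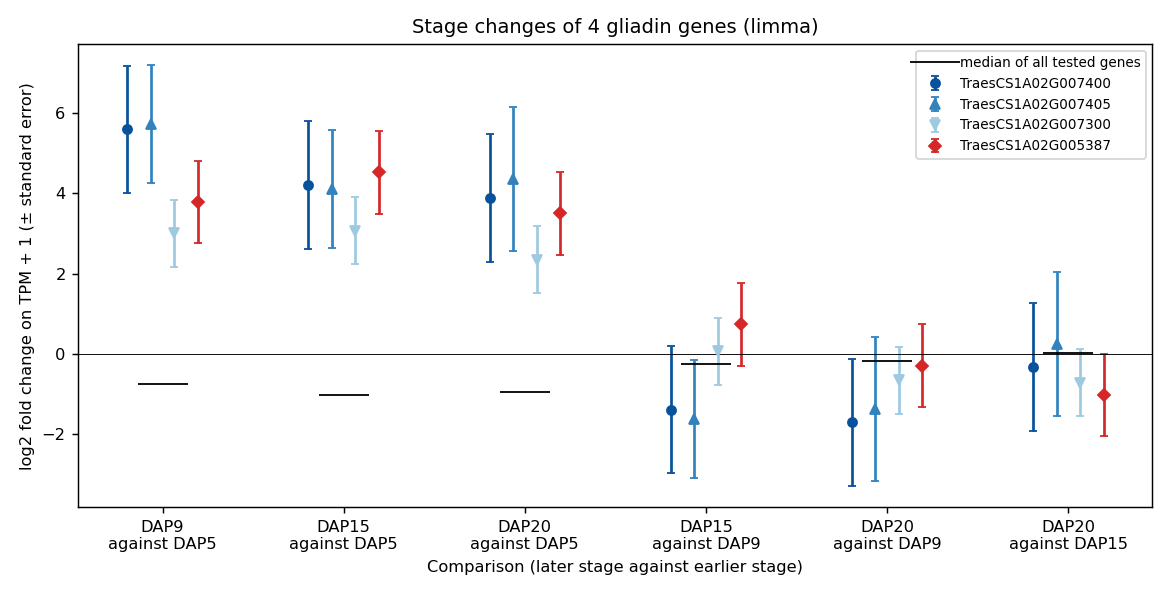
Log2 fold change on TPM + 1 of 4 gliadin genes for the 6 comparisons of a later with an earlier stage, with bars for the standard error from limma and black dashes for the median of all 37 tested genes. All 4 genes lie between 2.35 and 5.72 against DAP5, where the tested genes have medians under 0, and between -1.70 and 0.73 in the comparisons without DAP5.

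The direction of the difference from DAP5 held for all 3 genes under each alternative that was run, except for TraesCS1A02G007400 with quantile normalization. That method sets the change of TraesCS1A02G007400 to 0 by construction, since it was the most abundant tested gene in every library. Size factors from the median of gene ratios moved the median of all tested genes at DAP15 against DAP5 to 0.092. With these factors all 3 genes were called higher at DAP9, DAP15 and DAP20 than at DAP5, among 7, 7 and 9 of the 37 tested genes called higher. The standard errors of the 3 genes were smaller too, as for TraesCS1A02G005387 at 0.729 against 1.03 in the main fit. The scaling and the error thus changed together. With size factors from 23 genes outside the ENSRNA rows and the storage protein lists, 0, 1 and 0 of the 3 genes were called higher at these stages, among 0, 6 and 3 of the 37 tested genes.

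Among the tested genes outside the storage protein lists, the gene whose profile over the 8 libraries was most like each gliadin gene had a nearby identifier. No name is given for these genes. All candidates come from the same end of chromosome 1A, so their choice itself favours nearby identifiers. Likeness was measured as the root-mean-square difference of log2(TPM + 1) after each gene was centred on its mean, over the 34 tested genes that are not in the lists. TraesCS1A02G005368 was nearest to the omega-gliadin gene TraesCS1A02G005387, at 0.19, against a median of 2.34 for all 34 genes, and TraesCS1A02G005315 was next, at 0.35. The TPM of TraesCS1A02G005368 was 47.6 and 5.05 in DAP5 endosperm, 216 and 273 in DAP9 endosperm, 539 and 454 in DAP15 seed, and 185 and 253 in DAP20 seed. It was thus between 90.5% and 130.1% of the omega-gliadin gene in every library, and it was highest at DAP15 as well. For comparison, the gamma-gliadin genes TraesCS1A02G007300 and TraesCS1A02G007400 were at 0.57 and 0.83 from the omega-gliadin gene.

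Among the same 34 genes, TraesCS1A02G007344 was nearest to TraesCS1A02G007300, at 0.57, and TraesCS1A02G005368 was next, at 0.67, against a median of 1.83. TraesCS1A02G007200 was nearest to TraesCS1A02G007400, at 0.80, and TraesCS1A02G005368 was next, at 0.92, against a median of 2.64. The omega-gliadin gene was itself at 0.57 from TraesCS1A02G007300 and at 0.83 from TraesCS1A02G007400, nearer than TraesCS1A02G005368 in both cases. TraesCS1A02G007405, which was not in the 8-library fit, had the 1.24-fold range of ratios to TraesCS1A02G007400 given above, over 7 libraries. The range for TraesCS1A02G007200 was 4.64-fold, but over 8 libraries. Its highest ratio, 36.3%, was in replicate 1 of DAP20, the library without a value for TraesCS1A02G007405. The TPM of TraesCS1A02G007344 was 493 and 28 in DAP5 endosperm, 839 and 1153 in DAP9 endosperm, 551 and 533 in DAP15 seed, and 312 and 409 in DAP20 seed. That of TraesCS1A02G007200 was 107 and 12.1 in DAP5 endosperm, 1618 and 1471 in DAP9 endosperm, 1699 and 1713 in DAP15 seed, and 1319 and 1663 in DAP20 seed. The DAP5 replicates of these genes differed 17.6-fold and 8.85-fold, with replicate 1 higher as in the gliadin genes. The DAP9, DAP15 and DAP20 values of TraesCS1A02G007200 lay close together, and its ratio to TraesCS1A02G007400 was 26.3% ± 0.636 at DAP15, against 9.20% ± 1.69 at DAP9 (SD, n = 2 each).

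Most of the genes with an identifier between the first and the last of the 9 were at or near 0 in DAP15 seed. Of 53 such genes outside the lists, 29 were listed at 0 in both DAP15 libraries, 42 were under 1 TPM in both, and 2, TraesCS1A02G007200 and TraesCS1A02G007344, were over 100 TPM in both. In the 8-library fit, 7 of the 53 were tested. Against DAP5, TraesCS1A02G007200 was called higher at DAP9, DAP15 and DAP20, with log2 fold changes of 5.36, 5.50 and 5.30 (adjusted p = 0.00814, 0.00625 and 0.00654 from limma). Lower values were called for TraesCS1A02G005600, TraesCS1A02G005800 and TraesCS1A02G005900 at all of these stages and for TraesCS1A02G005700 at DAP15 and DAP20. At DAP15 their log2 fold changes against DAP5 were -1.74, -2.29, -1.35 and -1.18. TraesCS1A02G007344 was not called, at 3.04 for DAP9 against DAP5 (standard error 1.31, limma adjusted p = 0.115). Of the 7 tested genes, 2, 3 and 3 had a fitted change above 0 against DAP5 at DAP9, DAP15 and DAP20. After scaling by size factors from the median of gene ratios 0 of the 37 tested genes were called lower against DAP5.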

How the data were processed

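RNA-seq tables of 8 grain libraries of the cultivar AK58 were analysed. Per the methods of the study, the TPM values that the authors deposited came from TPMCalculator, after read trimming by fastp and alignment by hisat2. The submitters' processing notes list Trimmomatic, HISAT2 2.0.5 and StringTie 1.3.3b instead. The genome build and the annotation are not given in the sources used here, and neither is the sequencing depth. The first 179 to 194 complete rows of each table were used, and the unfinished last row was left out. Of the 9 identifiers, 0 were matched in the RefSeq gene table, so positions and sequences are not used here.

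A single model of the 4 stages without a replicate term was fitted to log2(TPM + 1) by limma 3.58.1 (R 4.3.3, lmFit, eBayes with trend). It held the 37 genes of all 8 tables that reached 1 TPM in 2 or more libraries, over which p-values were adjusted by Benjamini-Hochberg. The steps were tested on simulated data with the same spread in every gene and library, a setting that does not cover the wide DAP5 spread. The authors used DESeq2, which needs read counts. The genes named are the 9 genes, for each of them in the 8-library fit the 2 other tested genes with the nearest profile, and called genes with an identifier between the first and the last of the 9. The 9 genes and the lists were chosen with earlier results of these data known. No replicate values above 0 were identical in the 9 genes. Alternatives changed the pseudocount (0.1 or 5), the filter (none or a TPM of 5), the scaling (2 kinds of size factors or quantiles), the model (a replicate block, fewer stages, no trend, missing values allowed) and the adjusted p (0.05), or left out each library in turn. Python 3.11.15 with numpy 2.4.6, pandas 2.3.3 and matplotlib 3.10.9 was used for the rest.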

Additional observations from a re-analysis of the deposited data

How the results depend on the processing

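The order of the 9 genes at DAP15 was the same in 9 of 9 places in each replicate. Leaving either replicate out or taking means of log2(TPM + 1) therefore cannot change it. Of the 3 tested genes, 0 were called in each comparison. Against DAP5 the count became 3 at DAP9, 3 at DAP15 and 3 at DAP20 with median-of-ratios size factors, and 3, 2 and 1 at an adjusted p under 0.05, where 6, 5 and 5 of the 37 tested genes were called higher. At DAP15 against DAP5 it was 1 with a pseudocount of 5, 1 with a filter at a TPM of 5 and 1 with size factors from genes outside the ENSRNA rows, among 4 of 37, 4 of 24 and 6 of 37 tested genes called higher. When the fit held no other stages, it was 1 at DAP15 against DAP9. With each replicate left out in turn it ran from 0 to 3 at DAP9, from 0 to 3 at DAP15 and from 0 to 3 at DAP20 against DAP5. For TraesCS1A02G007405 the log2 fold change against DAP5 was called, at 6.49 at DAP9, 5.37 at DAP15 and 5.09 at DAP20, under median-of-ratios size factors (not under the other kind), and at 5.72 for DAP9 with an adjusted p under 0.05. Leaving out replicates, it ran from 3.76 to 7.68 at DAP9, from 2.14 to 6.06 at DAP15 and from 2.39 to 6.31 at DAP20 against DAP5, and from -1.78 to -1.47 at DAP15 against DAP9. Those fits hold 1 library of a stage, so only the change is given and their calls are not listed for this gene. When the fit held no stage but DAP9 and DAP15, its change of -1.62 was called, and for DAP20 against DAP15 it turned to -0.27 with the median-of-ratios size factors. Without DAP20 replicate 2, this gene has no DAP20 value, and quantile normalization was not run for it because of the missing library. Some changes between later stages turned their direction. TraesCS1A02G005387 turned to 0.10 (median-of-ratios size factors) and 0.53 (size factors from genes outside the ENSRNA rows) at DAP20 against DAP9, and with quantile normalization to -0.10 at DAP15 against DAP9 and 0.10 at DAP20 against DAP15. With the second kind of size factors, TraesCS1A02G007300 turned to 0.17 at DAP20 against DAP9 and TraesCS1A02G007400 to 0.025 at DAP20 against DAP15. Leaving out replicates, TraesCS1A02G007300 ran from -0.093 to 0.23 at DAP15 against DAP9, TraesCS1A02G005387 from -0.76 to 0.19 at DAP20 against DAP9, and TraesCS1A02G007400 from -0.84 to 0.20 at DAP20 against DAP15. The causes were not tested. A pseudocount of 1 moved the log2 ratio to TraesCS1A02G007400 by more than the replicate spread for TraesCS1A02G005387 at DAP9 (-6.10) and DAP15 (-3.99), TraesCS1A02G007300 at DAP15 (-5.61) and TraesCS1A02G010905 at DAP15 (-10.42).

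For libraries with the same replicate number, the deviations from the stage means were correlated across the tested genes. The correlations ran from -0.60 to 0.50 over the 6 pairs of stages and were highest for DAP15 with DAP20. Many of the tested genes vary together, so these values do not settle whether the numbers pair the libraries. With the replicate block, 0 of the 3 genes were called in each comparison, and no call of a listed gene changed. TPM keeps no counts, so counting error could not be set against the spread between 2 libraries.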
